A study of Mus musculus with 12 samples.

Results

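The genes described are the subunits of the NuRD complex other than its methyl-CpG binding domain proteins. NuRD couples an ATP-dependent nucleosome remodeler with histone deacetylases and is required in embryonic stem (ES) cells for normal lineage commitment. Its ATPase is Chd4 or one of the paralogs Chd3 and Chd5, its deacetylases are Hdac1 and Hdac2, the scaffolds Mta1, Mta2 and Mta3 hold the deacetylases, and Gatad2a and Gatad2b bridge the MBD protein to the ATPase. Mbd2 and Mbd3 occupy the complex in a mutually exclusive way. Of the 10 genes listed, 9 had at least 1 probe by the accession in the array design, with 14 probes in all, and Chd3 was not analysed here. These 9 genes were among 29838 genes tested, and the 14 probes were well above background on all 12 arrays.

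RNA came from E14 cells, a mouse ES cell line grown without feeder cells in serum with leukemia inhibitory factor, and collected 48 hr after transfection of endoribonuclease-prepared siRNAs (esiRNAs). Each group of 2 one-colour Agilent arrays carried a transient knockdown (KD) of a single gene, either EGFP, which these cells lack and which served as the control, or Dnmt1, Tet1, Mbd3, Mbd2 or Chd4. All 6 groups received esiRNA with the same transfection reagent, and each comparison uses the same 2 EGFP KD arrays. The KDs were made in 1 cell line, and the remaining mRNA limits each group as a model of loss. Values are log2 of the processed signal divided by the 75th percentile of its array (log2 scaled signal), and they are compared only within a probe. A log2 difference of 1 is a doubling, and differences were tested with limma over all 12 arrays, with a Benjamini-Hochberg adjusted p under 0.05 taken as a change. In such bulk RNA, fewer cells of a type and less RNA per cell cannot be told apart.

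The labels were checked before the subunits were compared. Dnmt1 (probe A_51_P195573) was 1.06 and 1.13 in EGFP KD and -0.54 and -1.25 in Dnmt1 KD. This difference of -1.99 was not called (limma adjusted p over all probes = 0.38), so the test missed a fall of that size. Tet1 (probe A_55_P2122997) was 2.14 and 2.00 on the EGFP KD arrays, and of the arrays with the Tet1 KD label it was low in replicate 2 (0.25) but not in replicate 1 (2.05). A low Tet1 value of 0.28 was also seen for Mbd2 KD replicate 1, as labelled. The dimmer Tet1 probe A_51_P512172 had the same pattern, with -0.09 and 0.34 in EGFP KD. For replicates 1 and 2 it was 0.36 and -0.80 in Tet1 KD and -1.06 and 0.38 in Mbd2 KD. The Mbd2 probe A_66_P133043 was -0.83 and -1.09 on the EGFP KD arrays, and was low with the labels Mbd2 KD replicate 2 (-2.73) and Tet1 KD replicate 1 (-2.71), but not with Mbd2 KD replicate 1 (-1.20). The brighter probe of Mbd2, A_55_P2036526, used for the gene in the tests, did not show this pattern, at -0.71 and -0.83 in EGFP KD, -0.85 on both Mbd2 KD arrays, and -0.97 and -1.38 in Tet1 KD. By A_55_P2122997, A_51_P512172 and A_66_P133043, but not by A_55_P2036526, 1 array of each of these groups goes against its label. Values for both groups are given with and without that array. The arrays lay on 3 slides, each scanned separately, and slide 3 had no control array (Chd4 KD, Mbd2 KD, Mbd3 KD and Dnmt1 KD, replicate 2 of each). The ES cell markers Pou5f1, Esrrb, Zfp42 and Dppa5a were saturated on 11 or 12 arrays. By limma 0 of 8 ES cell markers passed the test in any KD. The probe for Nanog was dim and well above background on 10 arrays.

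Chd4 mRNA, which encodes the main remodeling ATPase of NuRD in ES cells, fell in Chd4 KD and in no other KD. Its probe (A_55_P2020373) was 4.13 and 3.97 on the EGFP KD arrays and 2.50 and 3.04 on the Chd4 KD arrays, while the other 8 arrays lay between 3.85 and 4.46. Both Chd4 KD arrays were below all others. The log2 difference was -1.28 (SE 0.24, 95% interval -1.86 to -0.70, limma adjusted p = 0.042), a 2.43-fold lower signal, with -1.55 and -1.01 for the replicates. Within slide 2 the difference from EGFP KD was -1.46, and on slide 3 the Chd4 KD array was 1.29 below the mean of the other 3 arrays (log2 difference -1.29). The direction held but the call did not, as the adjusted p ran from 0.013 to 0.26 over 26 alternatives, was 0.16 without both arrays that go against their labels, and stayed under 0.05 on leaving out an array only when that was an Mbd3 KD array (0.033). In Mbd3 KD, where the MBD partner was lowered, Chd4 differed from EGFP KD by 0.11 (95% interval -0.47 to 0.69), and in Mbd2 KD by 0.18 (95% interval -0.40 to 0.76).

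Chd5, a paralog of Chd4 known mainly from neurons, had its highest signals in Chd4 KD and its next highest in Mbd3 KD, although neither difference passed the test. Its probe (A_55_P1978371) was -0.95 and -0.70 in EGFP KD, 0.37 and 0.56 in Chd4 KD, and 0.04 and -0.01 in Mbd3 KD. The remaining arrays were -0.77 and -1.07 in Mbd2 KD, -0.68 and -0.51 in Tet1 KD, and -0.53 and -1.51 in Dnmt1 KD. All 4 arrays of Chd4 KD and Mbd3 KD were thus above the 8 others, and the Chd4 KD arrays were above the Mbd3 KD arrays. Of the arrays labelled Mbd2 KD, only replicate 2 was low in Mbd2 by A_66_P133043, and there Chd5 was -1.07. Chd5 was -0.68 on Tet1 KD replicate 1, which was also low in Mbd2 by that probe. The log2 difference from EGFP KD was 1.29 in Chd4 KD (SE 0.30, 95% interval 0.59 to 1.99, limma adjusted p = 0.078) and 0.84 in Mbd3 KD (95% interval 0.14 to 1.54, limma adjusted p = 0.39). It was -0.10 in Mbd2 KD, 0.23 in Tet1 KD and -0.19 in Dnmt1 KD.

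The Chd5 difference in Chd4 KD had the same sign on both slides, with 1.07 against EGFP KD on slide 2 and 1.42 against the mean of the other 3 arrays on slide 3, where it was 0.57 above the Mbd3 KD array. In Mbd3 KD it was 0.99 within slide 1. Its SE rests on a spread shared by all groups, of which Dnmt1 KD was the widest at -1.02 ± 0.69 (SD, n = 2). Without either Dnmt1 KD array the same difference of 1.29 had a limma adjusted p of 0.013, with array weights 0.026, and without both arrays against their labels 0.21. Over the 26 alternatives with a test, the limma adjusted p of this difference reached 0.47. Only 1 probe reports Chd5, so no other probe could be set beside it.

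Among markers of other cell types, Thy1 was higher on the Chd4 KD and Mbd3 KD arrays than on every other array. Krt18 was highest in Chd4 KD (2.25 and 2.45), while its Mbd3 KD arrays (1.57 and 1.94) lay on either side of Mbd2 KD replicate 2 (1.60). Of the 20 listed, Postn was not tested, and the summed scaled signal of the other 19 was between 9.88 and 11.2 in EGFP KD, 16.2 and 16.3 in Mbd3 KD, and 18.4 and 21 in Chd4 KD, with all other arrays between 11.1 and 12.3. Thy1 and Krt18 were then left out, after their values were seen. The sum of the remaining 17 was 4.33 to 5.55 in EGFP KD and 4.20 to 5.24 in Mbd3 KD. In Chd4 KD it was 4.83 to 6.32, so the groups overlapped. Col1a1, which is among those 17, was -1.80 and -1.90 in Chd4 KD. It was -4.29 and -4.41 in EGFP KD and -4.00 and -4.20 in Mbd3 KD, and a probe this dim adds little to the sum. In Chd4 KD 3 of 19 rose (Krt18, Col1a1 and Thy1, where 3.19% of all genes were called), 13 were above 0 and 6 below, and the median was 0.13 with a lowest value of -0.74. In Mbd3 KD 1 of 19 rose (Thy1, against 0.764% of all genes), 9 were above 0 and 9 below, and the median was 0 with a lowest value of -1.09. No listed marker fell in either KD by limma, while the neuroectoderm markers Pax6, Sox1 and Nes differed by -0.18, 0.48 and 0.05 in Chd4 KD and did not pass the test. The mesoderm marker T was well above background on 2 arrays. The part of other cell types in the Chd5 values was not tested.

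The promoters of the ATPase genes are shown because the genes knocked down include those that write, oxidise or read methylated CpG. Chd4 mRNA was itself the esiRNA target in Chd4 KD. A link between these sequences and the differences in signal was not tested. The sequences are from RefSeq (build GRCm38.p6, 250 bases before to 50 after a start, 5′ to 3′ on the coding strand), and capitals mark each CG, which reads the same on both strands. Chd5 is shown at chr4:152338401-152338700 (plus strand) and Chd4 at the downstream of its listed starts, chr6:125095913-125096212 (plus strand).
Chd5: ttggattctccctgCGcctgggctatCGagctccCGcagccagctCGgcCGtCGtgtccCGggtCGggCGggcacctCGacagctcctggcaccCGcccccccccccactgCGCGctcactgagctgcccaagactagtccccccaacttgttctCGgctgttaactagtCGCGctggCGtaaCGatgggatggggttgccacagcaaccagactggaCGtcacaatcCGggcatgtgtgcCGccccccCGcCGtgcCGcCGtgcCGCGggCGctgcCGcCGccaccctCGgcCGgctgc
Chd4: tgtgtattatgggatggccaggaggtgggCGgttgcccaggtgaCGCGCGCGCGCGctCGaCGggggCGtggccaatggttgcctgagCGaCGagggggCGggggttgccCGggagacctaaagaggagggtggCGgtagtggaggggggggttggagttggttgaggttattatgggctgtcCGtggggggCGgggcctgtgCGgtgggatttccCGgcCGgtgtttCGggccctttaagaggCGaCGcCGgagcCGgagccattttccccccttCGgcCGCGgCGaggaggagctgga
The Chd5 window held 32 CG, a count reached by 9.5% of 32851 promoter windows of that length, and the Chd4 window held 29, reached by 12.9%. The upstream Chd4 window (chr6:125095731-125096030) held 17, reached by 31.4%, and the median of all windows was 7. Of the 9 subunits with values, 7 had a window in the table, and the largest count was 50 CG in Mta1, reached by 0.9% of windows. These counts describe the sequence, and methylation was not analysed here.

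**Figure D1:**
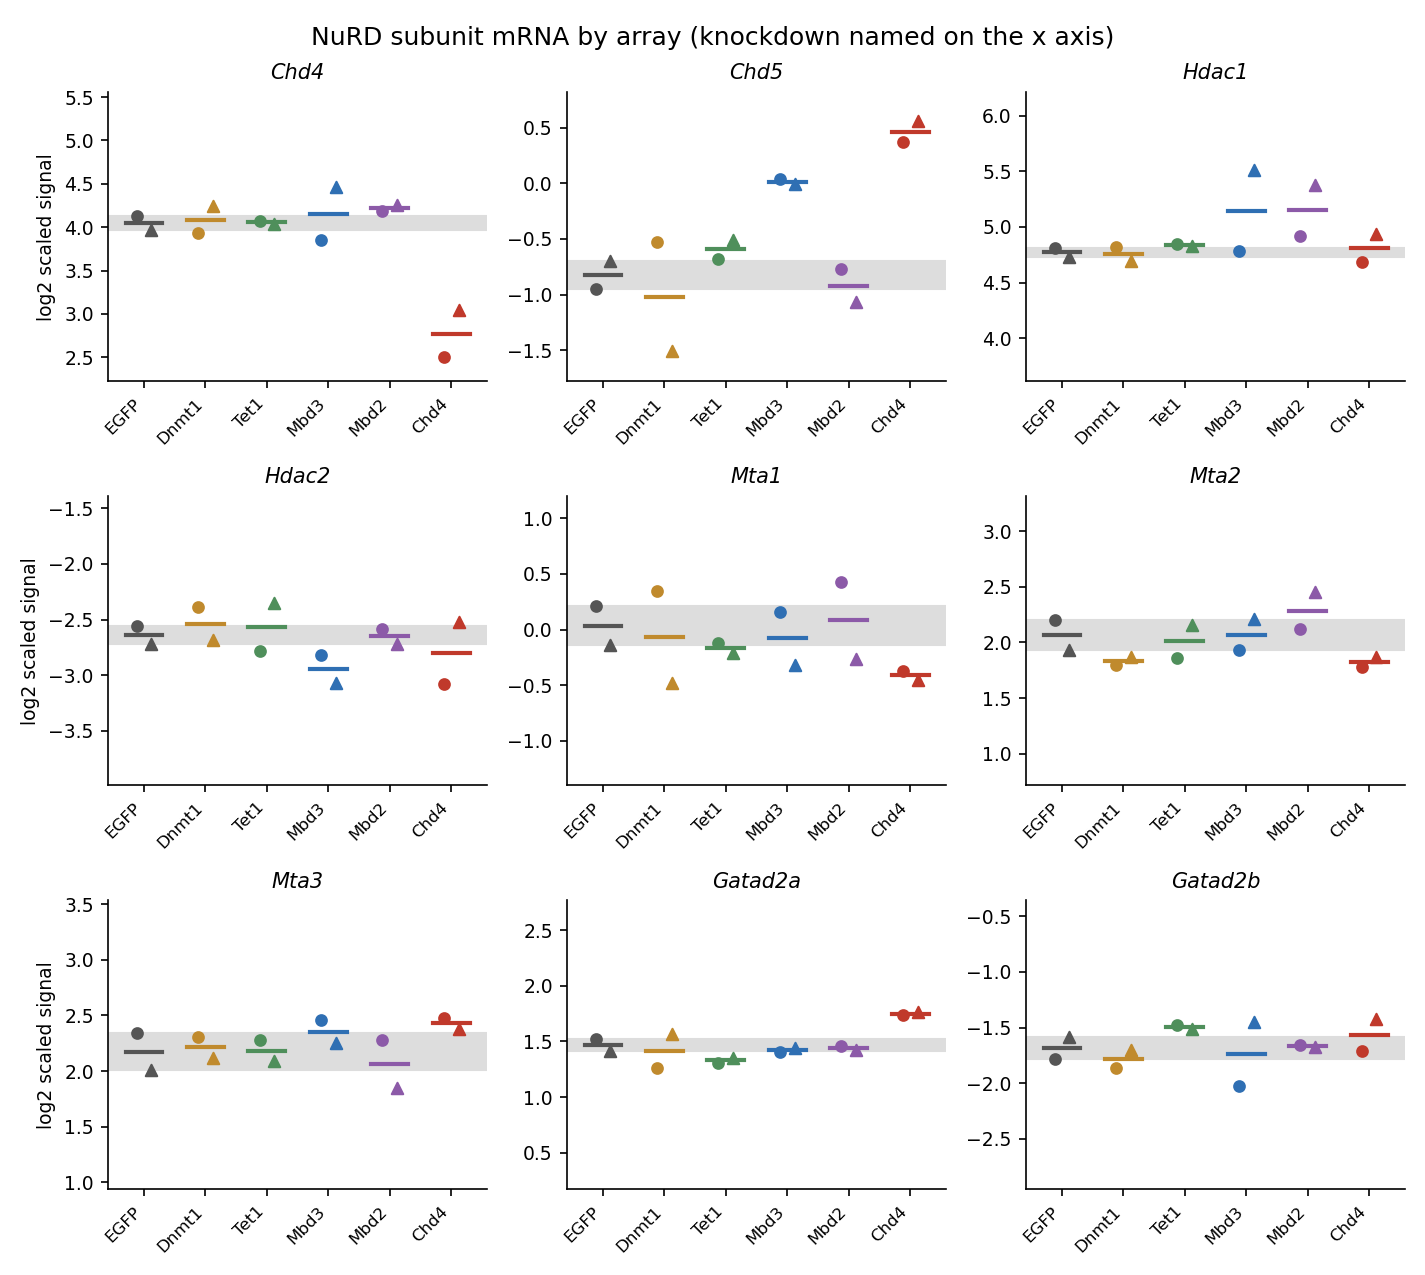
Log2 scaled signal of the probe that stands for each of 9 NuRD subunits on 12 arrays, with 1 panel per gene, circles for replicate 1, triangles for replicate 2, lines for the mean of 2 arrays and a grey band for the range of the EGFP KD arrays. Chd4 drops only in Chd4 KD (2.50 and 3.04), and Chd5 is highest in Chd4 KD (0.37 and 0.56) and next highest in Mbd3 KD (0.04 and -0.01).

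The deacetylase mRNAs did not change in any KD. Hdac1 (probe A_55_P1970775) was 4.81 and 4.73 in EGFP KD, 5.51 in Mbd3 KD replicate 2 and 5.38 in Mbd2 KD replicate 2 as labelled, and between 4.68 and 4.94 on the other 8 arrays. The high values were single arrays of slide 3, and this probe was saturated on 4 arrays, EGFP KD replicate 1, Tet1 KD replicate 2, Mbd3 KD replicate 1 and Chd4 KD replicate 2. The log2 differences were 0.37 in Mbd3 KD (95% interval -0.22 to 0.97) and 0.38 in Mbd2 KD (95% interval -0.22 to 0.98). The other Hdac1 probes, which were not saturated, gave -0.03 and 0.05 in Mbd3 KD and -0.02 and 0.08 in Mbd2 KD. In Chd4 KD the 3 probes gave 0.04, 0.18 and -0.07.

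Hdac2 (probe A_51_P116007) was dim and printed in 10 spots per array, whose SD ranged from 0.15 to 0.40 on the log2 scale. It was -2.56 and -2.72 in EGFP KD, -2.82 and -3.07 in Mbd3 KD, and -3.08 and -2.52 in Chd4 KD. The Mbd3 KD arrays were both below EGFP KD, and the Chd4 KD arrays lay on either side of it. The differences were -0.31 in Mbd3 KD (95% interval -0.85 to 0.23, limma adjusted p = 0.81) and -0.16 in Chd4 KD (95% interval -0.70 to 0.38).

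The Mta scaffolds did not pass the test in any KD either. Mta1 (probe A_55_P2415372) was 0.21 and -0.14 in EGFP KD and -0.37 and -0.45 in Chd4 KD, and Mta2 (probe A_51_P164207) was 2.20 and 1.93 in EGFP KD and 1.78 and 1.87 in Chd4 KD. Both scaffolds were thus lower on both Chd4 KD arrays than on either EGFP KD array, by -0.45 for Mta1 (95% interval -1.24 to 0.34) and -0.24 for Mta2 (95% interval -0.64 to 0.17), each with a limma adjusted p of 0.77. Dnmt1 KD arrays held similar Mta2 values, 1.80 and 1.87, and Mta1 ranged from -0.48 to 0.43 over the 8 arrays of the KDs of Mbd2, Mbd3, Tet1 and Dnmt1, so low values of both were also seen outside Chd4 KD. Mta3 was read by probes for different transcripts. The brighter (A_55_P2022094) was 2.34 and 2.01 in EGFP KD and 2.48 and 2.38 in Chd4 KD, a difference of 0.25 (95% interval -0.18 to 0.69), while the other (A_55_P1971347) differed by 0.04.

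Gatad2a, which links the MBD module to the ATPase, was higher on both Chd4 KD arrays than on every other array by 2 of its 3 probes, without passing the test. The probe that stands for it (A_66_P111773) was 1.52 and 1.41 in EGFP KD, 1.74 and 1.76 in Chd4 KD, and between 1.26 and 1.57 on the other 8 arrays. The log2 difference was 0.28 (SE 0.11, 95% interval 0.02 to 0.54, limma adjusted p = 0.33). The probe A_55_P2179834 was 0.78 and 0.73 in EGFP KD and 1.23 and 1.11 in Chd4 KD, a difference of 0.41 (limma adjusted p over all probes = 0.14), and the dimmer A_51_P129149 differed by 0.23. Gatad2b (probe A_52_P494115), its paralog, differed by 0.12 (95% interval -0.34 to 0.58) in Chd4 KD, where its arrays of -1.71 and -1.42 overlapped the EGFP KD arrays of -1.78 and -1.58.

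**Figure D2:**
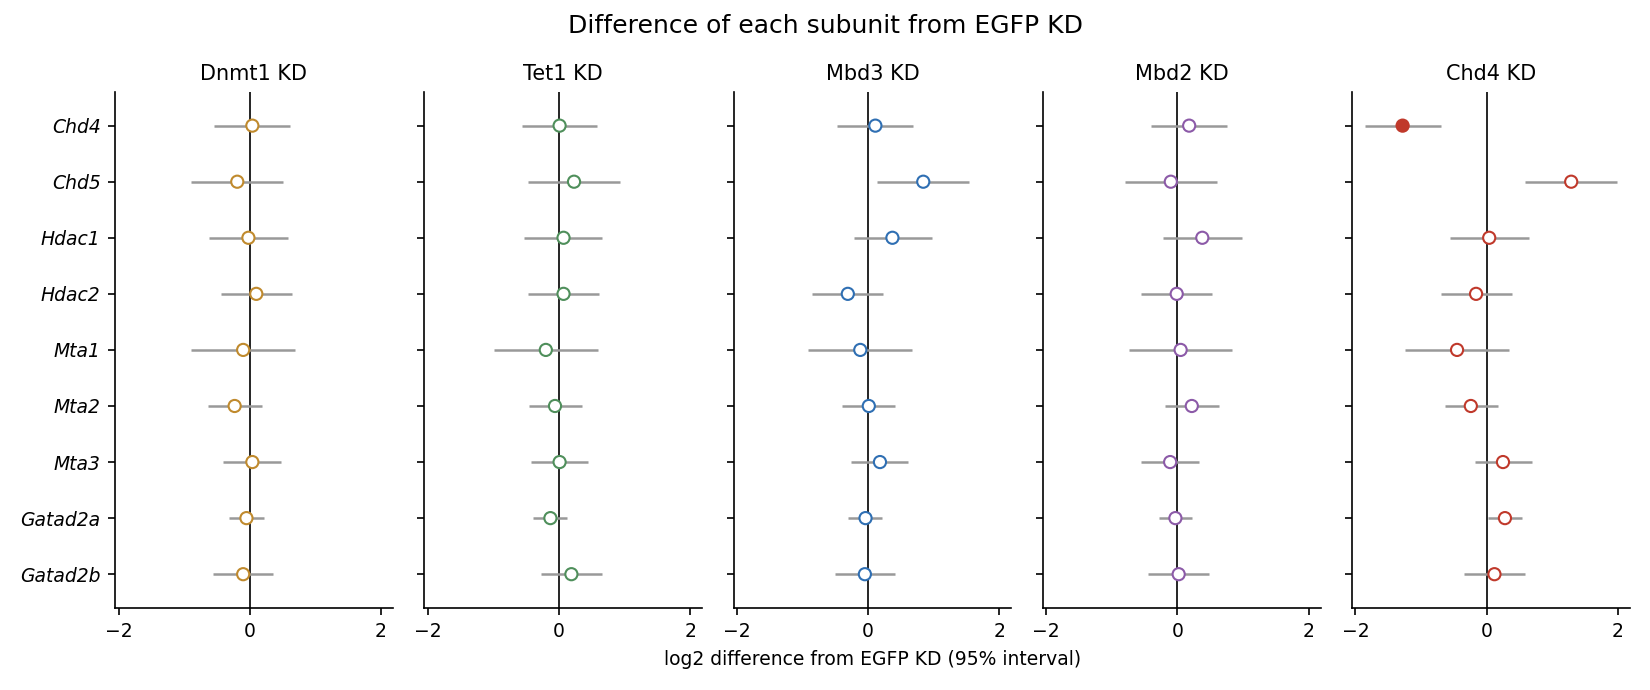
Log2 difference from EGFP KD of 9 NuRD subunits in 5 KDs, with bars for the 95% interval from limma and a filled point for an adjusted p under 0.05. The filled point is Chd4 in Chd4 KD (-1.28), and the intervals that also leave out 0 are Chd5 in Chd4 KD and Mbd3 KD and Gatad2a in Chd4 KD.

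Over the 9 subunits, 1 changed in Chd4 KD, the targeted gene itself, where 3.19% of all genes tested were called. In Mbd3 KD 0 of 9 were called against 0.764% of all genes, and in each of Mbd2 KD, Tet1 KD and Dnmt1 KD 0 of 9 were called against 0% of all genes. At an unadjusted limma p under 0.05 the count was 3 in Chd4 KD (Chd4, Chd5 and Gatad2a, against 12.8% of all genes) and 1 in Mbd3 KD (Chd5, against 9.66%). It was 0 in Mbd2 KD (2.08% of all genes), 0 in Tet1 KD (2.85%) and 0 in Dnmt1 KD (4.73%). The median log2 difference of the subunits was 0.04 in Chd4 KD, where all genes gave 0, and 0.01 in Mbd3 KD, where all genes gave -0.03. For Mbd2 KD it was 0.02 (all genes 0), for Tet1 KD 0.01 (all genes 0.09) and for Dnmt1 KD -0.05 (all genes -0.02). Apart from Chd4 and Chd5, every difference lay between -0.45 and 0.38 by the probe that stands for the gene. Other probes reached -0.48 (Mta3 in Tet1 KD) and 0.41 (Gatad2a in Chd4 KD).

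In Tet1 KD and Mbd2 KD the subunits were also compared without the arrays that go against their labels. These ranges are for the probe that stands for each gene. The array labelled Tet1 KD replicate 2 differed from the EGFP KD mean by between -0.25 (Mta1) and 0.32 (Chd5), and its counterpart with the Mbd2 KD label by between -0.33 (Mta3) and 0.39 (Mta2), apart from Hdac1. The Hdac1 probe that stands for the gene was saturated on EGFP KD replicate 1 and gave 0.61 there, while its probes that were not saturated gave 0.13 and 0.02. Other probes also fell outside the ranges. The dimmer Mta3 probe gave -0.57 on Tet1 KD replicate 2 and -0.44 on Mbd2 KD replicate 2. The Hdac1 probe A_66_P128384 gave -0.29 on Tet1 KD replicate 2, and the Gatad2a probe A_51_P129149 gave -0.44 on Mbd2 KD replicate 2. With both groups whole the range was -0.20 to 0.23 in Tet1 KD and -0.11 to 0.38 in Mbd2 KD, and 0 of 9 subunits were called, against 0% of all genes.

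Chd4 KD and Mbd3 KD were then set against each other, a difference whose size does not use the control arrays, although they and the other KDs enter the estimate of its spread. By limma 0 of 9 subunits were called, against 1.45% of all genes, and 2 had an unadjusted p under 0.05, against 10.1% of all genes. These were Chd4, with a log2 difference of -1.39 (95% interval -1.97 to -0.81, limma adjusted p = 0.051), and Gatad2a, with 0.32 (95% interval 0.07 to 0.58, limma adjusted p = 0.32). With every probe kept as a feature, Chd4 was called, against 1.51% of all probes. Chd5 was 0.45 higher in Chd4 KD, with an interval of -0.25 to 1.15 that includes 0.

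The remaining NuRD subunits are Mbd2, Mbd3, the histone-binding proteins Rbbp4 and Rbbp7, and Cdk2ap1. Mbd3 fell in Mbd3 KD by both its probes, to 1.34 and 1.56 from 4.33 and 4.49 by the brighter (log2 difference -2.96, limma adjusted p = 0.004), and was 4.31 and 4.17 in Chd4 KD. Rbbp4 was reported differently by its probes. The brighter (A_51_P307325) was 4.49 and 4.73 in EGFP KD and 4.63 and 4.45 in Chd4 KD, a difference of -0.07 (SE 0.15). The dimmer (A_52_P424767) was -2.24 and -2.41 in EGFP KD, -1.16 and -1.05 in Chd4 KD, and between -2.35 and -1.79 on the other 8 arrays, so both Chd4 KD arrays were above all others.

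The dimmer Rbbp4 probe rose by 1.22 in Chd4 KD (SE 0.16, limma adjusted p over all probes = 0.0091), where 3.15% of probes were called. The brighter probe was saturated on Mbd3 KD replicate 1 at 4.49, but not on the Chd4 KD arrays (4.63 and 4.45). It read 5.05 without saturation on Tet1 KD replicate 1. Whether saturation limits its ability to show a rise was not tested. Both probes carry the same accession and disagree, so the change is given for the dimmer probe and not for the gene. With normexp background correction the difference was 0.50 (adjusted p = 0.58), and it was not called without EGFP KD replicate 1 (0.052), EGFP KD replicate 2 (0.059) or Chd4 KD replicate 2 (0.072), or without both arrays against their labels (0.052). Rbbp7, Cdk2ap1 and the standing probe of Mbd2 differed by 0.21, -0.07 and 0.39 in Chd4 KD and by 0.22, 0.25 and 0.15 in Mbd3 KD, and did not pass the test. The standing probe of Cdk2ap1 was also saturated on Mbd3 KD replicate 1.

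**Figure D3:**
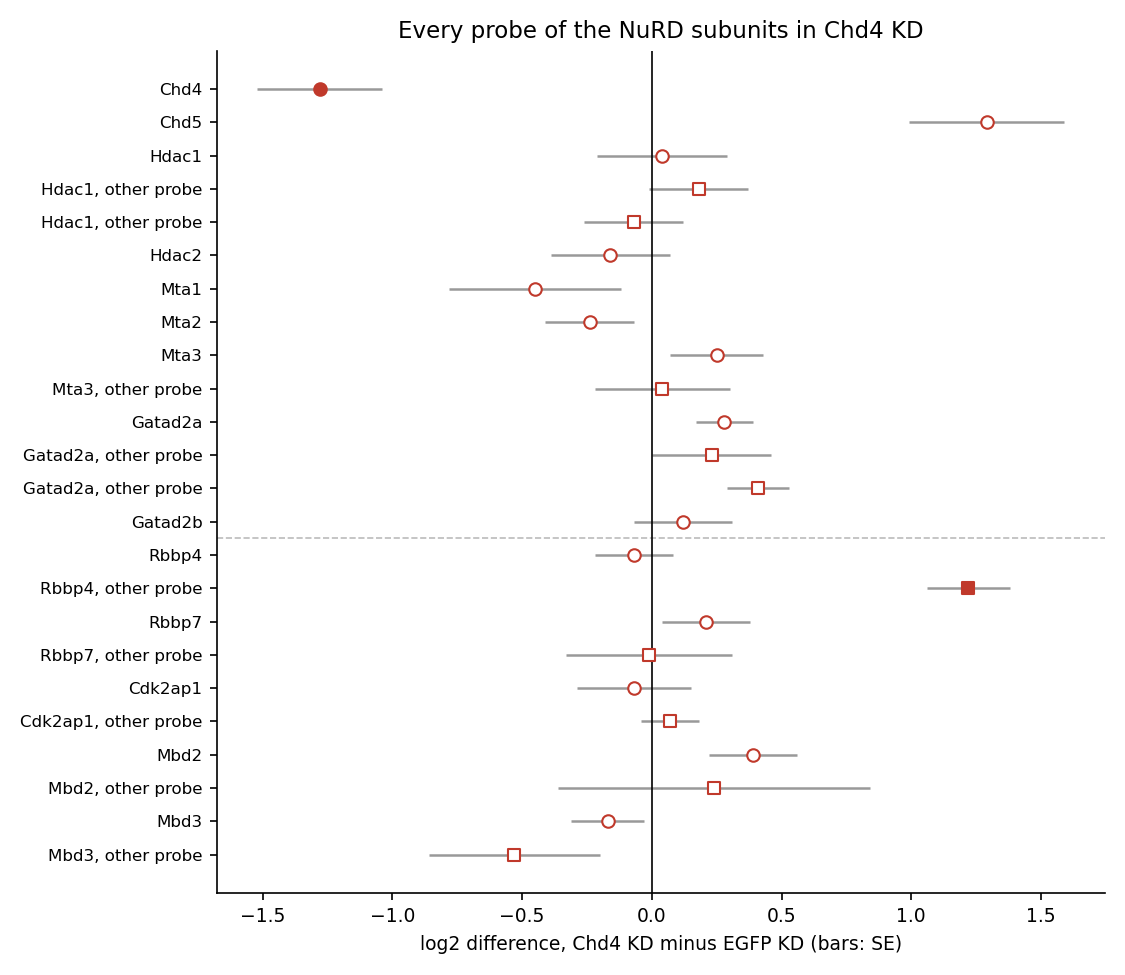
Log2 difference between Chd4 KD and EGFP KD for every probe of the NuRD subunits, with bars for the SE, circles for the probe that stands for the gene, squares for other probes and filled symbols for an adjusted p under 0.05 over all probes. Below the dashed line are the subunits that are not among the 9, where the Rbbp4 probes sit at -0.07 and 1.22.

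Of 13 factors that bind NuRD, 2 changed in Chd4 KD, where 3.19% of all genes were called, and 1 in Mbd3 KD, where 0.764% were, all upward. Pwwp2b, a PWWP domain protein found with Mta1-containing deacetylase complexes, was 0.93 and 0.62 in EGFP KD, 1.64 and 1.79 in Chd4 KD, and 1.83 and 1.64 in Mbd3 KD. Its arrays in Chd4 KD and Mbd3 KD were all above the others, which reached 0.99. Among the others, Pwwp2b was 0.82 and 0.93 with the label Mbd2 KD, of which only replicate 2 (0.93) had low Mbd2 by A_66_P133043. It was 0.92 on Tet1 KD replicate 1, which was also low in Mbd2 by that probe. The log2 difference was 0.94 in Chd4 KD (SE 0.13, limma adjusted p = 0.011) and 0.96 in Mbd3 KD (SE 0.13, limma adjusted p = 0.032). Without both arrays against their labels the adjusted p was 0.061 and 0.14, and the Mbd3 KD call was lost whichever array was left out (0.059 to 0.15).

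Zfpm1, a zinc finger cofactor of GATA factors that recruits NuRD, was -0.66 and -1.06 in EGFP KD and 0.42 and 0.02 in Chd4 KD, with the other 8 arrays between -1.31 and -0.45. Both Chd4 KD arrays were above all others. The log2 difference was 1.08 (SE 0.18, limma adjusted p = 0.026), and the call was lost without either EGFP KD array (0.053 and 0.12), either Chd4 KD array (0.12 and 0.051), either Mbd3 KD array (0.052) or either Mbd2 KD array (0.053). Wdr5, a WD repeat protein shared with other chromatin complexes, was the 1 factor called between Chd4 KD and Mbd3 KD, at -0.52 (SE 0.08, limma adjusted p = 0.036), and was named for that count after its values were seen.

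**Figure D4:**
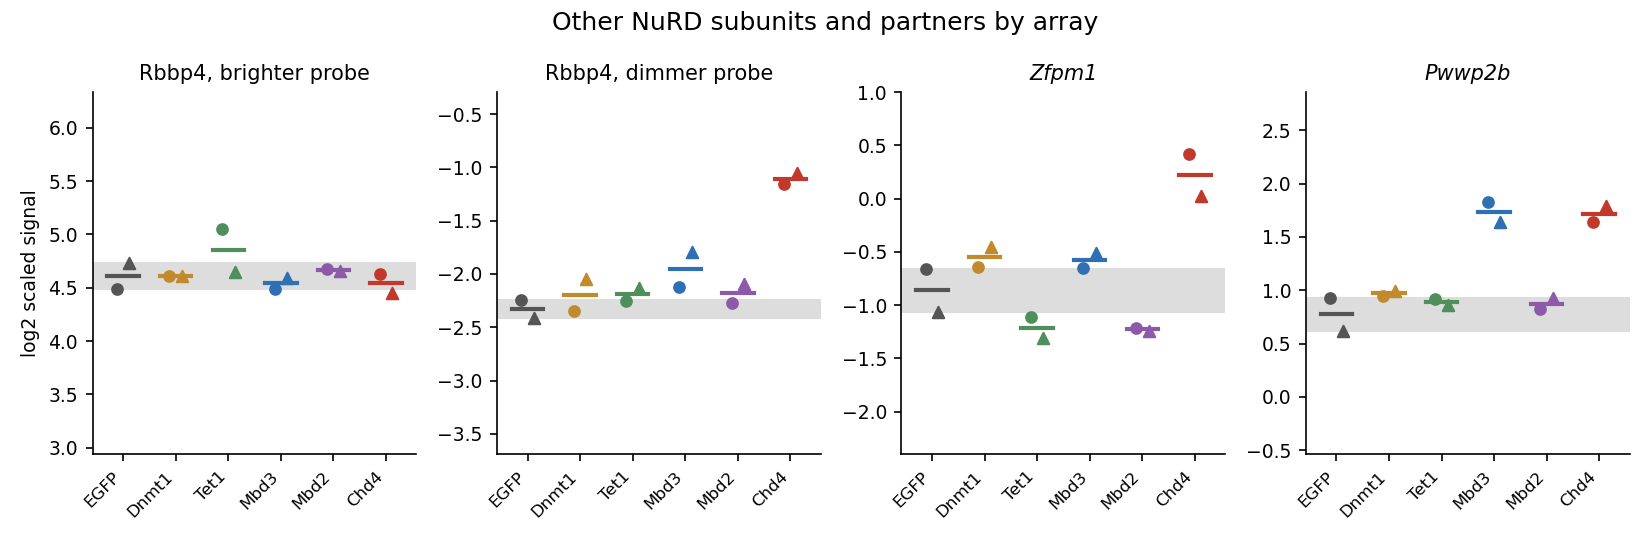
Log2 scaled signal on 12 arrays of both Rbbp4 probes, Zfpm1 and Pwwp2b, with circles for replicate 1, triangles for replicate 2, lines for the mean of 2 arrays and a grey band for the range of the EGFP KD arrays. The dimmer Rbbp4 probe and Zfpm1 are highest in Chd4 KD, and Pwwp2b is highest in Chd4 KD and Mbd3 KD, while the brighter Rbbp4 probe in Chd4 KD (4.63 and 4.45) overlaps EGFP KD.

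The relatives of these subunits outside NuRD did not pass the limma test in any comparison with EGFP KD. Of 7 other CHD remodelers 6 were tested, and their differences lay between -0.34 and 0.06 in Chd4 KD. Among the CHD genes tested, which leave out Chd3, Chd5 thus had the highest difference there. The other class I deacetylases, Hdac3 and Hdac8, differed by -0.43 and -0.17 in Chd4 KD. The 20 subunits of other complexes that hold Hdac1 and Hdac2 lay between -0.90 and 0.39 in Chd4 KD and between -0.57 and 0.43 in Mbd3 KD. At an unadjusted p under 0.05, 1 of 6, 0 of 2 and 4 of 20 of these genes passed in Chd4 KD, against 12.8% of all genes, and 0, 0 and 1 in Mbd3 KD, against 9.66%.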

How the data were processed

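The authors labelled RNA from 12 samples with a single dye and quantified the arrays with Agilent Feature Extraction 10.7.1.1. The deposited scanner output gives each spot's processed intensity, from which local background had been subtracted, with no normalization across arrays. The deposited table of the series holds the authors' log2 values relative to EGFP KD, and was used as an alternative. Intensities were divided by the 75th percentile of the 43020 non-control spots of the array (1784.5 to 2451.6), floored at 0.0344 (log2 -4.86) and put on a log2 scale, and spots of a probe were averaged. Outlier spots were left out. The share of 39429 probes well above background ran from 76.9% to 95.1% by array, and the number of arrays limits the precision.

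Accessions were named through a RefSeq gene table of GRCm38.p6. A probe was tested where some group had it well above background on both its arrays, and the brightest probe stood for its gene. limma 3.58.1 (R 4.3.3) fitted a model with 6 groups (residual df 6), which was tested on simulated data. The study's methods call the replicates biological, and p-values measure the spread between arrays. The genes named are all 10 listed subunits, the targeted genes, the other NuRD subunits, and genes of further lists called in a comparison with EGFP KD. The subunits and lists were chosen with earlier results of these data known. Alternatives were quantile normalization, normexp on the median signal (offset 50), other filters, all probes or their mean, replicate number or slide as a block, 4 arrays only, array weights, a trended prior, other thresholds, and arrays left out. Those for Rbbp4's dimmer probe and for genes outside the 10 were added after seeing the data.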

Additional observations from a re-analysis of the deposited data

How the results depend on the processing

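The fall of Chd4 in Chd4 KD kept its direction in every alternative and its call in 12 of 26 with a test. It was not called with quantile normalization (-1.09), normexp background correction (-1.42), only the 4 arrays of the comparison (-1.28) or both arrays against their labels left out (-1.28), and leaving out single arrays gave -1.55 to -1.01. The deposited table, whose scale is compressed, gave -0.144 without a test. The number of subunits called in Chd4 KD was 0 with those 4 alternatives, 2 with array weights or an adjusted p under 0.1 (Chd4 and Chd5), 3 at an unadjusted p under 0.05, and 0 to 1 on leaving out single arrays, where without either Dnmt1 KD array the 1 called was Chd5. Among all 29838 genes, the number called in Chd4 KD was 846 with quantile normalization, 68 with normexp and 0 with only the 4 arrays. It was 1171 with array weights and 1487 at an adjusted p under 0.1, so the number called varied for all genes as well. In Mbd3 KD the number of subunits called was 1 at an unadjusted p, against 2882 of all genes. Between Chd4 KD and Mbd3 KD it was 1 (Chd4) with every probe as a feature, the mean of a gene's probes, slide as a block or an adjusted p under 0.1, and 2 at an unadjusted p. Of all genes 449, 439, 372, 715 and 3009 were called with these settings, in that order. With the replicate block 1 subunit was also called between these KDs, against 438 of all genes, and Chd4 in Chd4 KD stayed called (-1.28, adjusted p = 0.030). Deviations of same-numbered EGFP KD and KD arrays correlated at 0.142 to 0.508 for Mbd2 KD, Tet1 KD, Mbd3 KD and Dnmt1 KD. For Chd4 KD it was -0.034, and the numbers were not taken to pair the arrays. Number and slide were partly confounded, so these values cannot separate them. Slide 1 held replicate 1 of the control, Mbd2 KD, Dnmt1 KD and Mbd3 KD. Chd4 KD replicate 1 lay on slide 2 with EGFP KD replicate 2. Dnmt1 KD replicate 2 correlated at 0.9885 with Mbd3 KD replicate 2 of its slide and 0.9477 with its own replicate 1. For Chd4 KD replicate 2 these were 0.9817 and 0.9815. The main fit left slide out. With slide as a block, genes called went from 228 to 56 in Mbd3 KD and from 952 to 1294 in Chd4 KD. Rbbp4, at -0.07 and not called in Chd4 KD, was called at 0.58 with the mean of its probes. Chd5 in Chd4 KD ranged from 1.02 to 1.45 over the alternatives on the main scale. With normexp the median of all genes lay between -0.39 and -0.25 in the comparisons with EGFP KD. Relative to that median in Chd4 KD (-0.35), Chd4 was -1.07 and Chd5 1.37. Of the 53 differences of subunits that were not called, 35 changed sign in at least 1 alternative. These were at most 0.33 in size as reported, and after the change of sign reached 0.62 with normexp (Hdac2 in Tet1 KD, from 0.07 to -0.62) and 0.31 in the other alternatives. The causes were not tested. With 2 arrays per group, the 95% interval in Chd4 KD was narrowest for Gatad2a (0.02 to 0.54) and widest for Mta1 (-1.24 to 0.34).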
